A study of Mus musculus with 4 samples.

Results

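Potassium channel genes were followed in the hippocampus of adult mice with and without a deletion of Ipmk, the gene of inositol polyphosphate multikinase. Members were all probe sets whose gene symbol begins with Kcn, which were 101 of the 33793 probe sets on the array, and each gene was represented by the probe set with the highest mean over the arrays. This gave 99 of the 30921 genes with a symbol on the array. Only Kcna2 and Kcnma1 had 2 probe sets. RNA came from the right hippocampus of behaviourally naive male mice at postnatal day 90, with 1 mouse per array and 2 arrays per genotype. The group labelled IPMK WT consisted of Ipmk f/f mice without Cre, and the group labelled IPMK cKO consisted of Ipmk f/f;CaMKII-Cre littermates, so all 4 mice carried the floxed alleles. CaMKII-Cre acts after birth in excitatory neurons of the forebrain, so interneurons, glia, vessels and choroid plexus in the same tissue should keep the gene. Hippocampal RNA was hybridized to Affymetrix Mouse Gene 2.0 ST arrays, and values are log2 signals after RMA, a method that subtracts background, equalizes the distributions of the arrays and joins the probes of a set to a single value. A difference of 1 on this scale is a doubling of signal. Levels of different probe sets depend on their probes and were not set against each other.

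Potassium channels let potassium leave the cell, which returns the membrane to rest after a spike and limits how readily a neuron fires. Voltage-gated (Kv) channels are assembled from pore-forming alpha subunits with cytoplasmic or membrane partners. Inward rectifiers (Kir) and leak channels of the K2P type set the resting potential, and calcium-activated BK and SK channels follow spikes. In the hippocampus, dendritic A-type current, the M current and G protein-gated current each rest on a few well-known members of this family.

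The targeted gene, Ipmk, had higher signal on the IPMK cKO arrays than on the IPMK WT arrays, contrary to its labels. Its brighter probe set, on chromosome 10 from 71347763 to 71385885, read 7.68 and 7.71 with the IPMK WT label and 8.44 and 8.78 with the IPMK cKO label, a log2 difference of 0.92 (SE 0.15, adjusted p = 0.9999 from limma). The dimmer one read 5.78 and 5.52 against 6.97 and 6.43. Where the floxed exon lies relative to these probes is not known, and each direction below is therefore that of the labels. The synaptotagmin gene Syt2 read 6.34 and 6.63 with the IPMK WT label and 8.13 and 7.61 with the IPMK cKO label. Its log2 difference was 1.39 (SE 0.21, adjusted p = 0.9999 from limma). The paper also reports Syt2 as higher in IPMK cKO, from its arrays and by quantitative PCR. Array medians lay between 5.10 and 5.15. All 10 markers of excitatory neurons had a mean log2 value of at least 4, among them Slc17a7 at 10.89 to 11.22, Camk2a at 11.80 to 11.95 and Prox1 at 7.95 to 8.41 over the 4 arrays. Markers of choroid plexus were also well above the dim end of the array (Ttr, 12.36 to 12.83), and this tissue borders the hippocampus. In bulk tissue, fewer cells of a type and less RNA per cell cannot be told apart.

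The comparison of genotypes asks whether channel transcripts differ where Ipmk was to be deleted. In limma, 0 of 99 members passed an adjusted p under 0.05 (background 0% of 33793 probe sets, adjusted p = 0.9999 for every member). At an unadjusted p under 0.05 there were also 0 of 99 members, beside 2.86% of all probe sets (0.979% higher and 1.88% lower). The test based on local pooled error (LPE) that the methods name, rewritten here, gave 0 members at either threshold, beside 2 probe sets after adjustment and 1.14% of all before it. A test of averages, which the methods give in a general section and not for the arrays, gave 0 members and 0 probe sets after adjustment. Before adjustment it gave 1 member, Kcnh6, beside 3.55% of all probe sets. Differences, always as IPMK cKO minus IPMK WT as labelled, ran from −0.37 for Kcnj13 to 0.33 for Kcnk5. Of the 99 genes, 41 were higher and 58 lower, with a median of −0.03, against −0.00 over all probe sets. The middle of the distribution, from the lower to the upper quartile, was −0.11 to 0.08 for the members and −0.10 to 0.08 for all probe sets. No member lay past 1.5-fold, as 0.63% of all probe sets did. This split rested on 1 array, since without IPMK cKO replicate 2 it turned to 62 higher and 37 lower, with a median of 0.0525.

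Both arrays labelled IPMK cKO lay above both labelled IPMK WT for 13 members, 13.1% of them, where the background was 12.4%. They lay below for 15 members, 15.2%, where the background was 14.8%. In all, 28 members did not overlap, or 28.3%, beside 27.2% of all probe sets. With 2 arrays against 2, an exact permutation test of a single gene cannot give a p under 0.333. The interval of the difference gives the range of changes compatible with these values, and not what the test would call. In simulated data, limma called 14.4% of planted log2 changes of 1 at an adjusted p under 0.05. Of planted log2 changes of 2 it called 92.2%. The 95% confidence interval lay within 1.5-fold in either direction for 77 of 99 members and, over all probe sets, for 75.2%. It lay within 2-fold for 97 members, the exceptions being Kcne2 and Kcnj13. The median standard error was 0.15 for the members and 0.14 for all probe sets.

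**Figure D1:**
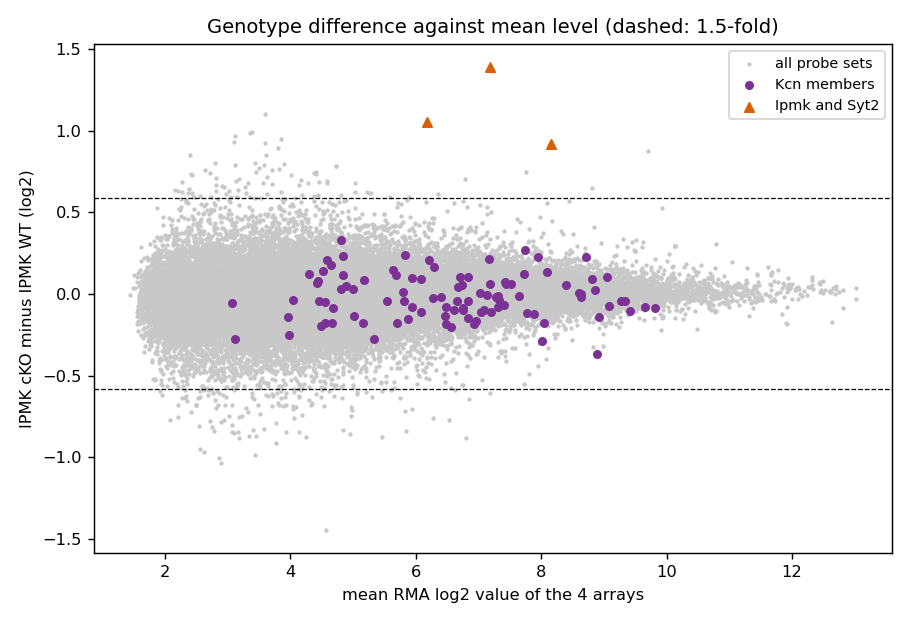
Difference of group means by the labels (IPMK cKO minus IPMK WT, log2, vertical) against the mean log2 value of the 4 arrays (horizontal) for each probe set, with the 99 potassium channel genes in purple, Ipmk and Syt2 as triangles and dashed lines at 1.5-fold. All purple points lie between −0.37 and 0.33, inside the dashed lines.

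The largest differences without overlap were small. Kcnk5, a leak channel that opens in alkaline medium (chromosome 14, 20140058 to 20181782), read 4.77 and 4.50 with the IPMK WT label and 4.99 and 4.94 with the IPMK cKO label. Its log2 difference was 0.33 (SE 0.14, 95% confidence interval −0.02 to 0.68, unadjusted p = 0.0618, adjusted p = 0.9999 from limma), the lowest unadjusted p among the 99 genes. Kcnk13, a leak channel known from mouse microglia, read 5.57 and 5.83 against 5.96 and 5.92, a log2 difference of 0.24 (SE 0.14). The summed signal of 10 microglial markers was 2146 and 2869 with the IPMK WT label and 2030 and 2876 with the IPMK cKO label, and did not follow that order. Kcnd3os, a noncoding RNA, read 4.71 and 4.72 against 5.14 and 4.75, where the difference of 0.23 (SE 0.16) came mainly from a single array. Kcnc4, a Kv3 subunit, read 7.81 and 7.88 against 8.17 and 7.96 (0.22, SE 0.13), and Kcnk7, a further gene of the leak channel family, read 4.37 and 4.59 against 4.66 and 4.72 (0.21, SE 0.14). The 95% confidence intervals of all 5 differences include 0.

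In the other direction, Kcnv1, a silent Kv subunit that conducts no current alone and modifies Kv2 channels (chromosome 15, 45106284 to 45114934), read 8.30 and 8.02 with the IPMK WT label and 7.95 and 7.80 with the IPMK cKO label. The log2 difference was −0.29 (SE 0.15, 95% confidence interval −0.66 to 0.08, adjusted p = 0.9999 from limma). Kcnk3, an acid-sensitive leak channel, read 6.71 and 6.63 against 6.54 and 6.39 (−0.20, SE 0.13). For both genes the gap between the groups was narrower than the distance between the 2 mice labelled IPMK cKO. Kcnj14, an inward rectifier, read 5.85 and 5.73 against 5.62 and 5.60 (−0.18, SE 0.12). Kcnh4 read 5.28 and 5.21 against 5.18 and 4.95 (−0.18, SE 0.14), and Kcnk16 read 4.58 and 4.71 against 4.48 and 4.45 (−0.18, SE 0.12). All of these intervals include 0. The remaining separated genes had differences of at most 0.21 in size, apart from Kcnj1 and Kcnrg, which are described below.

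Among Kv1 subunits, which lie mostly on axons and set the threshold for firing, 1 of 8 genes was higher and 7 were lower, with a median of −0.07. Kcna1 (chromosome 6, 126636463 to 126645801) read 9.19 and 9.05 with the IPMK WT label and 9.28 and 8.82 with the IPMK cKO label. Kcna2 read 8.69 and 8.57 against 8.63 and 8.62, a log2 difference of −0.00 (SE 0.12). Its other probe set, upstream of the brighter one, read only 3.17 and 3.37 against 3.56 and 3.05, near the dim end of the array. Kcna4, an A-type subunit of axons, read 7.14 and 6.89 against 7.07 and 6.59, and Kcna7 had the lowest unadjusted p of the group, with 4.77 and 4.41 against 4.45 and 4.33 (−0.20, SE 0.16). In each of these 4 genes the genotypes overlapped. Kcnab2, the beta subunit that carries Kv1 channels to the axon, read 9.43 and 9.51 against 9.36 and 9.37. It was separate, with a difference of means of −0.11 (SE 0.12). Kcnab1 overlapped with 7.92 and 7.74 against 7.94 and 7.48, and Kcnab3 read 6.12 and 6.11 against 6.45 and 6.19 (0.21, SE 0.14).

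Kv2 channels carry the slow delayed rectifier of the cell body. Kcnb2 read 7.22 and 6.86 with the IPMK WT label and 7.05 and 6.70 with the IPMK cKO label (−0.17, SE 0.19), and the genotypes overlapped. Of 10 silent subunits that join Kv2, 7 were lower and 3 higher, and 4 of the lower ones did not overlap (Kcng3, Kcns2, Kcnv1, Kcnv2), where 14.8% of all probe sets were lower without overlap. The median of the silent subunits was −0.10. Kv3 channels, which let interneurons fire fast, had 2 genes higher and 2 lower. Kcnc1 read 7.38 and 7.14 against 7.30 and 6.99, and Kcnc2 read 7.68 and 7.62 against 7.76 and 7.52. Both overlapped. The summed signal of 8 interneuron markers, not all particular to parvalbumin cells, was 2683 and 2401 against 2363 and 2391. The brightest of these markers was Sst, at 10.50 and 10.16 against 10.18 and 10.18. Pvalb itself read 6.76 and 6.64 against 6.48 and 6.57.

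Kcnd2 encodes the main subunit of the A-type current that dampens spikes in the dendrites of pyramidal neurons (chromosome 6, 21215503 to 21729805). It read 9.97 and 9.75 with the IPMK WT label and 9.97 and 9.58 with the IPMK cKO label, a log2 difference of −0.08 (SE 0.18, 95% confidence interval −0.52 to 0.35). Kcnd3 read 7.35 and 6.91 against 7.23 and 7.02. Kcnd1 read 5.996 and 6.06 against 6.15 and 6.09 and was separate, with a difference of means of 0.09 (SE 0.12). Among the KChIPs, calcium-binding partners of these channels, 3 of 4 genes were higher and none was separate between the genotypes. Kcnip2 read 8.46 and 8.28 against 8.47 and 8.38. Kcnip3, also known as the calcium-dependent repressor DREAM, read 8.78 and 9.21 against 9.02 and 9.17. Kcnip4 read 7.81 and 7.52 against 8.01 and 7.57, and its replicate 1 arrays were the higher ones in both genotypes.

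The M current, which acetylcholine closes through loss of phosphatidylinositol bisphosphate, is carried by Kv7 subunits, Kcnq3 and Kcnq5 among them. Kcnq3 (chromosome 15, 65994915 to 66286224) read 9.15 and 8.84 with the IPMK WT label and 9.06 and 8.65 with the IPMK cKO label (−0.14, SE 0.19), and Kcnq5 read 8.70 and 8.49 against 8.81 and 8.39 (0.00, SE 0.18). In both genes the genotypes overlapped and the replicate 1 arrays were the higher ones. In the EAG, ERG and ELK group, 3 of 8 genes were higher and 5 lower. Kcnh1 read 7.34 and 7.48 against 7.54 and 7.41, Kcnh7 read 8.26 and 8.02 against 8.11 and 7.81, and both overlapped. Kcnh6, an ERG subunit, read 4.72 and 4.79 against 4.59 and 4.56, a log2 difference of −0.18 (SE 0.12). Its arrays of each genotype lay close together, and its adjusted p was 0.9999 in limma.

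**Figure D2:**
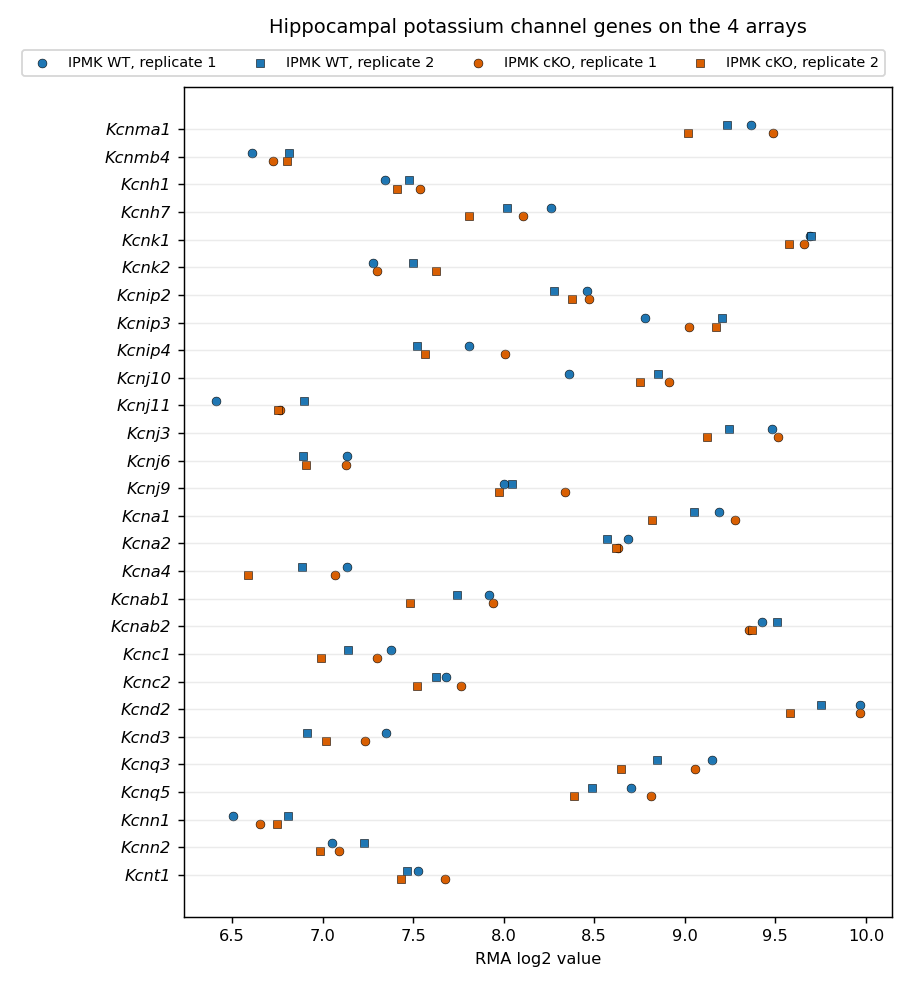
RMA log2 value (horizontal) of 28 potassium channel genes known from hippocampal neurons and astrocytes on each of the 4 arrays, blue for IPMK WT and orange for IPMK cKO by the labels, circles for replicate 1 and squares for replicate 2, with genes grouped by channel family. The colours overlap in all rows but Kcnab2 and Kcnk1, and both squares lie left of both circles in 17 rows. Over all probe sets, 27.2% did not overlap by genotype and 22.7% had both replicate 2 arrays below both replicate 1 arrays.

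Calcium-activated channels overlapped without exception in this comparison. Kcnma1, the pore of the BK channel (chromosome 14, 23298694 to 24004205), read 9.37 and 9.23 with the IPMK WT label and 9.49 and 9.02 with the IPMK cKO label. Its other probe set read 8.46 and 8.41 against 8.61 and 8.26, with the same array highest and the same array lowest. Kcnmb4, the neuronal beta subunit of BK, read 6.61 and 6.81 against 6.73 and 6.80 (0.05, SE 0.13). SK channels, opened by calcium through calmodulin, are known for the pause after a burst. Kcnn1 read 6.50 and 6.81 against 6.65 and 6.75, Kcnn2 read 7.05 and 7.23 against 7.09 and 6.99, and Kcnn3 read 6.96 and 7.16 against 7.15 and 7.39 (0.21, SE 0.15). Of the sodium-activated channels, Kcnt1 read 7.53 and 7.47 against 7.68 and 7.43 and overlapped. Kcnt2 read 8.02 and 7.88 against 7.77 and 7.88 and was separate by a very narrow gap. Its difference of means was −0.13 (SE 0.13).

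Of 15 inward rectifiers, 8 were higher and 7 lower, with 2 separate in each direction, beside 12.4% of all probe sets separate and higher and 14.8% separate and lower. The G protein-gated pores, opened by GABA and adenosine receptors, all overlapped. Kcnj3 (chromosome 2, 55435970 to 55598145) read 9.48 and 9.24 with the IPMK WT label and 9.51 and 9.12 with the IPMK cKO label. Kcnj6 read 7.13 and 6.89 against 7.13 and 6.91, and Kcnj9 read 7.999 and 8.05 against 8.34 and 7.97. In Kcnj3 and Kcnj6 the arrays split by replicate number and not by genotype. Kcnj11, the pore of the ATP-sensitive channel, read 6.41 and 6.90 against 6.77 and 6.75. Kcnj1 had the lowest unadjusted p of the rectifiers and was dim, at 4.17 and 4.03 against 3.69 and 4.01 (−0.25, SE 0.16). Kcnrg, a gene named as a regulator of Kv assembly, read 3.32 and 3.19 against 2.92 and 3.03 (−0.28, SE 0.13). Their means were under 4, as were those of Kcnu1 and Kcnv2 and of 29.1% of all probe sets, so little can be read from these 4 members.

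Leak channels gave 5 of 14 genes higher and 9 lower, with 3 separate in each direction, beside the same shares of 12.4% and 14.8% over all probe sets. Kcnk1 (chromosome 8, 125995102 to 126030685) read 9.69 and 9.70 with the IPMK WT label and 9.66 and 9.57 with the IPMK cKO label (−0.08, SE 0.12). Kcnk2, a channel opened by stretch and lipids, read 7.28 and 7.50 against 7.30 and 7.63 and overlapped. Over the whole list of 30 hippocampal channel genes, 14 were higher and 16 lower, with a median of −0.00. Of the 30, 3 were separate, among them Kcnab2 and Kcnk1, beside 27.2% of all probe sets separate in either direction. Across all 30 alpha subunits of the Kv1, Kv2, Kv3, Kv4, Kv7 and EAG groups, 11 were higher and 19 lower, with a median of −0.02.

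**Figure D3:**
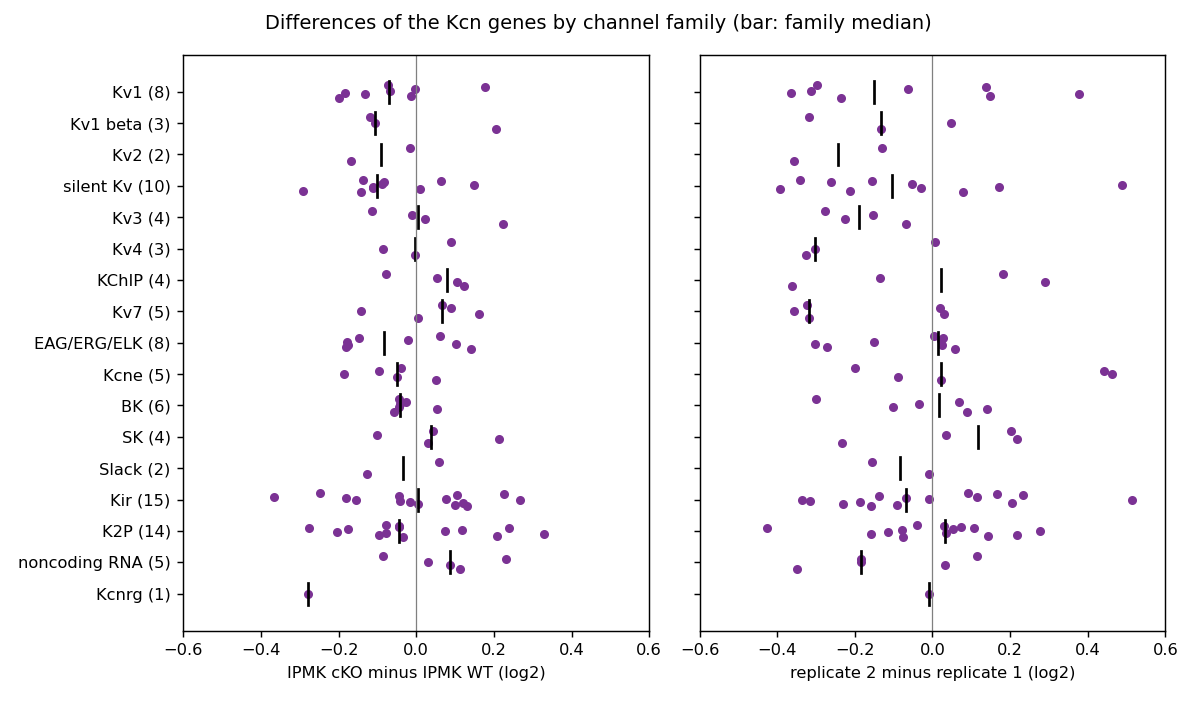
Log2 difference (horizontal) of each of the 99 genes by channel family (rows, number of genes in brackets), as IPMK cKO minus IPMK WT as labelled on the left and as replicate 2 minus replicate 1 on the right, with a bar at the family median. On the left the medians of families with at least 4 genes lie between −0.10 and 0.09, and on the right those of Kv4 and Kv7 lie at −0.30 and −0.32.

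A list of 23 partner genes holds those that anchor, traffic or modulate these channels without bearing a Kcn symbol. It likewise had 0 genes at an unadjusted p under 0.05 in limma, beside 2.86% of all probe sets. Of the 23 partners, 12 were higher and 11 lower, with a median of 0.00. Amigo1, an adhesion protein bound to Kv2, read 7.27 and 7.17 with the IPMK WT label and 7.51 and 7.40 with the IPMK cKO label (0.23, SE 0.12, adjusted p = 0.9999 from limma). Abcc9, a sulfonylurea receptor of the ATP-sensitive channel, read 6.61 and 6.50 against 6.38 and 6.39 (−0.18). Amigo1 was separate between the genotypes, as was Abcc9, and neither reached an unadjusted p under 0.05 in limma. In all, 3 partners were separate and higher and 2 separate and lower, beside 12.4% and 14.8% of all probe sets.

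The mean difference between replicate 2 and replicate 1 arrays was larger in size than the genotype difference for 61 of 99 members, 61.6%, against 59.5% of all probe sets. Replicate number here only names the arrays and stands for no stated batch or litter, although the mice of each number carried neighbouring animal numbers in the labels. As replicate 2 minus replicate 1 in a fit with genotype, 0 of 99 members passed an adjusted p under 0.05 (background 0%, lowest adjusted p among members 0.432 from limma). At an unadjusted p under 0.05, 13 members were lower in replicate 2, or 13.1%, where the background was 4.95%, and 4 were higher, or 4.04%, where the background was 5.75%. Both replicate 2 arrays lay below both replicate 1 arrays for 32 members, 32.3% against 22.7% of all probe sets, and above for 15, 15.2% against 22%. The median over members was −0.06, and over all probe sets −0.01. With a prior variance that follows signal, 4 members passed an adjusted p under 0.05 among 2.71% of all probe sets, namely Kcnq3 (adjusted p = 0.0339), Kcnd2 (0.0487) and Kcnj3 (0.0487) lower in replicate 2 and Kcnj16 (0.0202) higher, all from limma.

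The 13 lower genes included Kcnk15, with 5.63 and 5.32 with the IPMK WT label and 5.48 and 4.93 with the IPMK cKO label, a replicate difference of −0.43 and the lowest of all. Kcns3, a silent subunit, read 5.93 and 5.64 against 6.04 and 5.54 (−0.39). Kcna4, Kcnip4 and Kcnq3, whose arrays are given above, each had a replicate difference of −0.36. The others were Kcnb2, Kcnd3, Kcnq1, Kcnq5, Kcnj3, Kcna3, Kcnh5 and the imprinted noncoding RNA Kcnq1ot1, at −0.36 to −0.30. Kv alpha subunits made up 8 of the 13, Kcnq1 with a low mean log2 value of 4.42 among them. The rest were Kcnk15, Kcns3, Kcnip4, Kcnj3 and Kcnq1ot1. At an unadjusted p under 0.05, 8 of the 30 Kv alpha subunits were lower, beside 4.95% of all probe sets. Only 1, Kcna5, was higher, beside 5.75%. Of the 30, 17 had both replicate 2 arrays below both replicate 1 arrays, beside 22.7% of all probe sets, and the median was −0.15. Among the 23 partner genes 20 were lower in replicate 2, 14 of them without overlap, with a median of −0.16. Excitatory neuron markers moved the same way, 9 of 10 being lower in replicate 2 with a median of −0.18, and their summed signal was 11398 and 11146 with the IPMK WT label and 12014 and 10247 with the IPMK cKO label. Astrocyte markers moved the other way in 10 of 10 genes, with a median of 0.48 and sums of 7726 and 10151 against 8185 and 10613. Oligodendrocyte markers did so too, 10 of 10 with a median of 0.22 and sums of 10729 and 12600 against 10646 and 12335, as did 10 of 10 microglial markers with a median of 0.41. The interneuron markers split into 4 higher and 4 lower in replicate 2, with a median of −0.01. Of 10 endothelial and mural markers, 8 were lower, with a median of −0.09. On average 4 of 5 blood markers were lower, with a median of −0.05. Within IPMK WT, however, Hba-a1, Hba-a2, Hbb-bt and Alas2 were higher in replicate 2. All 8 choroid plexus markers, Kcne2 included, were higher on average, with a median of 0.15. Each of them was lower in replicate 2 within IPMK WT and higher only within IPMK cKO. Ttr read 12.83 and 12.63 against 12.36 and 12.75. No marker of these lists had a mean log2 value under 4. The part of cell composition in the replicate differences was not tested.

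**Figure D4:**
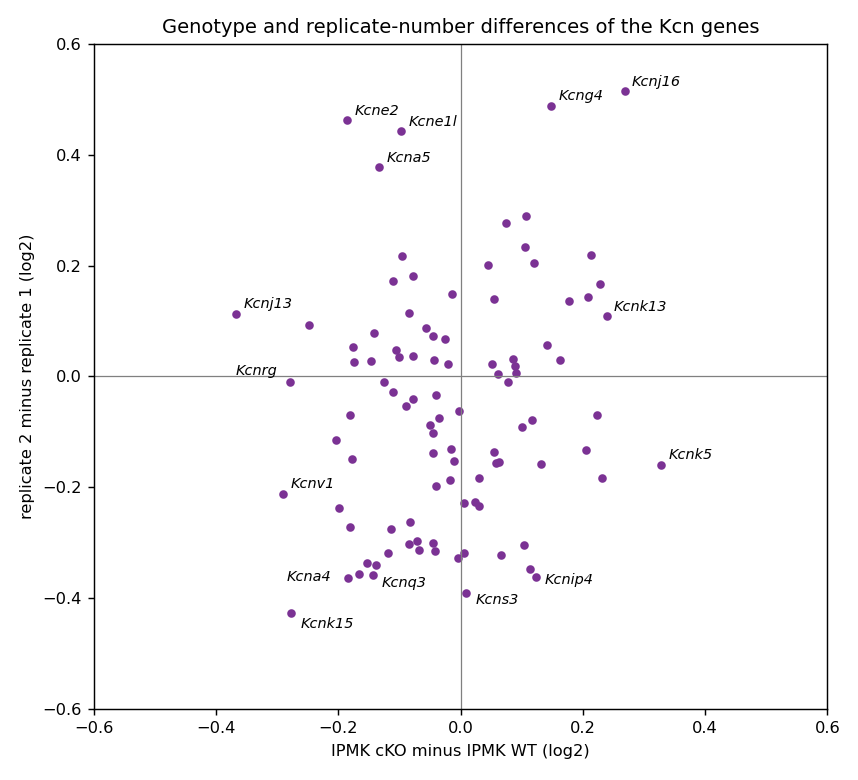
Replicate difference (replicate 2 minus replicate 1, vertical, log2) against genotype difference (IPMK cKO minus IPMK WT as labelled, horizontal, log2) for each of the 99 genes, with the members farthest out named. The vertical spread, −0.43 to 0.51, is wider than the horizontal one, −0.37 to 0.33.

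Of the 4 members higher in replicate 2 at an unadjusted p under 0.05, Kcna5 is a Kv1 subunit and Kcng4 a silent Kv subunit. Kcnj16 forms channels with Kcnj10 in astrocytes and other potassium-buffering cells (chromosome 11, 110968033 to 111027968). It read 7.31 and 7.90 with the IPMK WT label and 7.65 and 8.09 with the IPMK cKO label, a replicate difference of 0.51 (adjusted p = 0.432 from limma), the highest of the members. Its order over the arrays was that of the astrocyte sums, which Aqp4, Aldh1l1 and Aldoc kept singly and the other astrocyte markers did not. In 10 of 10 astrocyte markers both replicate 2 arrays lay above both replicate 1 arrays, as in Kcnj16. Kcnj10, the main potassium-buffering channel of astrocytes, read 8.36 and 8.85 against 8.91 and 8.75. It kept neither pattern, being highest in IPMK cKO replicate 1. Kcng4 read 5.29 and 5.84 against 5.50 and 5.93 (0.49), Kcne1l read 6.37 and 6.94 against 6.40 and 6.72 (0.44), and Kcna5 read 4.92 and 5.25 against 4.74 and 5.16 (0.38).

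Kcnj13 and Kcne2, singled out after their values were seen, had the widest intervals of all members. Kcnj13, an inward rectifier of the apical membrane of the choroid plexus (chromosome 1, 87386284 to 87394729), read 9.38 and 8.77 with the IPMK WT label and 8.29 and 9.13 with the IPMK cKO label. Its log2 difference was −0.37 (SE 0.33, 95% confidence interval −1.18 to 0.45), and −0.79 without IPMK cKO replicate 2. Kcne2, a small partner subunit also abundant in choroid plexus, read 6.73 and 6.42 against 5.77 and 7.01 (−0.19, SE 0.39, 95% confidence interval −1.16 to 0.79), and −0.80 without the same array. For both genes IPMK cKO replicate 1 was the lowest array. The summed signal of 7 choroid plexus markers other than Kcne2 was 8707 and 7393 against 5996 and 8157, and it put the arrays in the same order as Kcnj13, with a median genotype difference of −0.35 and none of the markers under a mean of 4. The part of the choroid plexus in these values was not tested.

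**Figure D5:**
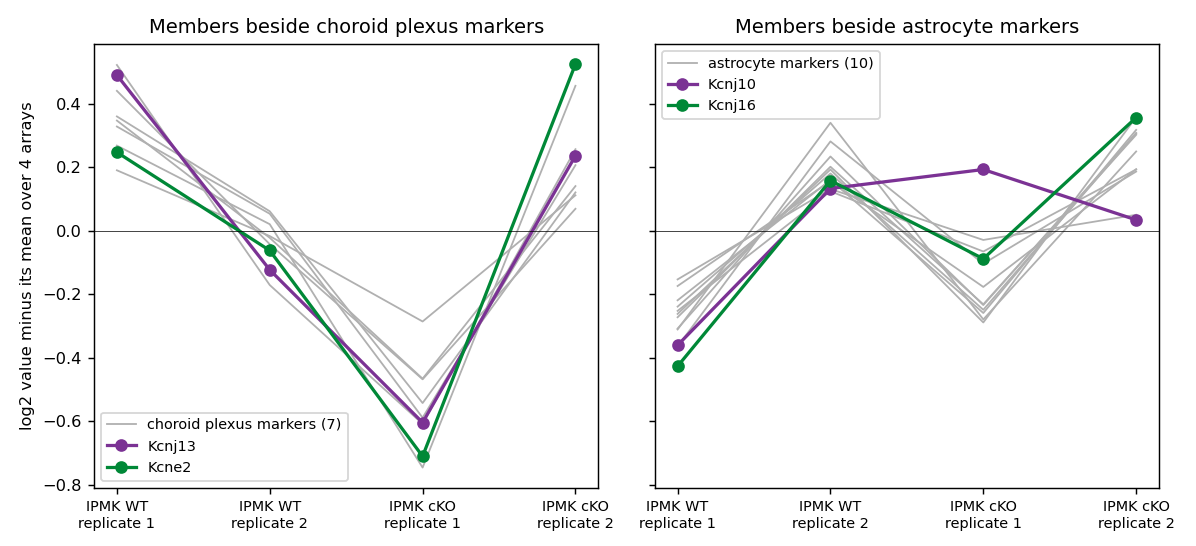
Log2 value minus the gene's mean over the 4 arrays (vertical) on each array (horizontal), for Kcnj13 and Kcne2 beside 7 choroid plexus markers on the left and Kcnj10 and Kcnj16 beside 10 astrocyte markers on the right, markers in grey. Kcnj13 and Kcne2 are lowest in IPMK cKO replicate 1 as the choroid plexus markers are, and Kcnj16 is higher in both replicate 2 arrays as the astrocyte markers are, while Kcnj10 is highest in IPMK cKO replicate 1.

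Promoters are shown for 3 neuronal members that were lower in both replicate 2 arrays (Kcna4, Kcnd2 and Kcnj3) and for Kcnj13, which kept the order of the choroid plexus sums. The paper names CREB-binding protein and serum response factor among the proteins that IPMK binds. The letters searched were therefore the cAMP response element TGACGTCA, its core TGACG, which also lies within the longer motif, and the CArG box of serum response factor. For promoter type the GC box GGGCGG was added, and all were searched on both strands. Each window runs from 250 bases before to 50 bases after the start of the gene, 5′ to 3′ on the gene's own strand, from RefSeq on GRCm38.p6, with matches in capitals. The windows are Kcna4 at chr2:107290339-107290638 (plus strand), Kcnd2 at chr6:21215096-21215395 (plus), Kcnj3 at chr2:55435720-55436019 (plus) and Kcnj13 at chr1:87394680-87394979 (minus).
Kcna4: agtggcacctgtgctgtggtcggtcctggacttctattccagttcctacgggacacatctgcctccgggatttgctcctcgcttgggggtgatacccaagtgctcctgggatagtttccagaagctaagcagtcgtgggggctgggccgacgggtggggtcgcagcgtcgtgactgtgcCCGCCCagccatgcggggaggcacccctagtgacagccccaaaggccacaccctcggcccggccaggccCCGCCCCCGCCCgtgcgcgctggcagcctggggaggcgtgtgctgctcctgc
Kcnd2: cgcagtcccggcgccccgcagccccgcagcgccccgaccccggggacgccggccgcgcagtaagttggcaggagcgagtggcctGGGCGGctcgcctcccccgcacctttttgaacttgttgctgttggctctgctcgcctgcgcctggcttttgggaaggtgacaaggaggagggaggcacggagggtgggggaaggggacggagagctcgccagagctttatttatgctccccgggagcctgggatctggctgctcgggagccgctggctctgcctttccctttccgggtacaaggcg
Kcnj3: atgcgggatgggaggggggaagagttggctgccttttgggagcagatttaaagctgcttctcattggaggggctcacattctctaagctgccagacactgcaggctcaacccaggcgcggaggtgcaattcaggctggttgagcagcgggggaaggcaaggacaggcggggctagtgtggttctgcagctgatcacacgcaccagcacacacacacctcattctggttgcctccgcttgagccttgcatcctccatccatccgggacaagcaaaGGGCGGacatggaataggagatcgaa
Kcnj13: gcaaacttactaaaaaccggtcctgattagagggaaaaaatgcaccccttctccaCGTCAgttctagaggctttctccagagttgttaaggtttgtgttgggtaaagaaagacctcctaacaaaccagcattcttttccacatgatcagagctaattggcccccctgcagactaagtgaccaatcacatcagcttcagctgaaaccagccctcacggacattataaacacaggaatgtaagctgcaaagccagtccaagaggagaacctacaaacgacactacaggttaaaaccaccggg

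The capitals mark 3 GC boxes in Kcna4, 1 each in Kcnd2 and Kcnj3, and 1 TGACG core, on the other strand, in Kcnj13. RefSeq windows were found for 72 of 99 members, 97 windows in all, some genes having several starts. The GC box was present in 46 of these windows, 47.4%, and in 35.7% of all 32851 windows. TGACG was present in 19, 19.6% against 20.8%. TGACGTCA and the CArG box were in 0 of 97 member windows, where 1.79% and 1.63% of all windows held them. These are matches of letters in short windows and say nothing of binding.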

How the data were processed

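The authors scanned the 4 arrays, summarized them by RMA in Affymetrix Expression Console and deposited log2 values, 1 for each probe set on each array, in 2 tables that hold identical values. The number of arrays limits the precision. A further 4 columns of per-array values repeated the first and were not used, and neither were the columns of the authors' own comparison (fold, LPE statistic, adjusted p). The genome build of the annotation is not given in the sources used here, and 98 of 99 members matched a GRCm38.p6 gene by Entrez identifier and symbol. Group means were compared over all 33793 probe sets with limma 3.58.1 (lmFit, eBayes) in R 4.3.3, two-sided, with Benjamini-Hochberg adjustment and no block. LPE was rewritten with 100 bins and a span of 0.2. The fit was tested on simulated data. Replicates came from separate mice.

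Members and lists were chosen with earlier results of these data known. Named were the 5 largest separate differences each way at a mean of at least 4, 30 hippocampal genes, the lowest unadjusted p of each family, the 5 largest replicate differences each way, and for partners the 2 lowest p. Some of these genes are not reported here. Alternatives tried were a prior that follows intensity, a robust prior, a replicate block, median centring, renewed quantile normalization, minimum means of 4 and 6, unique probe sets, averaged probe sets of a gene, the other table, LPE, the test of averages and leaving out each array. Figures used Python 3.11.15 and matplotlib 3.10.9.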

Additional observations from a re-analysis of the deposited data

How the results depend on the processing

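No member passed an adjusted p under 0.05 for genotype under any alternative run with limma, LPE or the test of averages, and of 895 values of 57 named genes under alternatives, 58 had the other sign and 0 were called. At an unadjusted p under 0.05, 1 member was higher, Kcnk5, with a replicate block (1.66% of all probe sets), with median centring (1.22%) and with renewed quantile normalization (1.37%), and 1 was lower, Kcnh6, with the test of averages (2.08%), against 0 as reported. Same-numbered arrays had a correlation of deviations of 0.244 over all probe sets, but the labels do not say that a number marks a litter or batch, and the block gave 0 adjusted calls. At a mean log2 value of at least 6, 4 of 62 members were separate and higher (13.1% of all probe sets) and 8 lower (8.44%). Leaving out each array in turn, where a lone array is assumed to vary like the others, gave 0 to 1 members higher and 0 to 2 lower at an unadjusted p (0.95% to 1.88% and 1.4% to 2.68% of all probe sets), 21 to 43 separate and higher (27.9% to 32.9%), 25 to 51 separate and lower (30.9% to 36.3%), and a median of −0.095 to 0.0525. The members at an unadjusted p were Kcnk5 without IPMK WT replicate 1, Kcnj10 and Kcnj2 without IPMK WT replicate 2, Kcnf1 and Kcnk15 without IPMK cKO replicate 1, and Kcnj13, Kcne2 and Kcnd3os without IPMK cKO replicate 2. Fewer arrays separate more easily by construction. Median centring moved all probe sets to a median of 0.016 and the split of members to 47 higher and 52 lower. By replicate number, an intensity trend gave 4 members called (2.71% of all probe sets), 7 higher (8.39%) and 21 lower (6.31%) at an unadjusted p, the minimum of 6 gave 1 called (Kcnj16, 4.54%), and centring gave 6 lower (3.49%). The other causes were not tested. Arrays could not be left out of the replicate comparison, since no degree of freedom remains. In the dim genes signal near background limits what can be seen.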
